A study of Drosophila melanogaster with 21 samples.

Results

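The RNA of the enzymes that carry glucose to lactate was followed in Drosophila S2 cells under RNAi against CoVa, a gene of mitochondrial electron transport. The genes are Hex-A, Hex-C, Pgi, Pfk, Ald1 (Ald in older annotation), Tpi, Gapdh1, Pglym78 and Eno, taken as every probeset that the array annotation gives to 1 of these symbols alone, and ImpL3, the lactate dehydrogenase (Ldh in the RefSeq table), whose probeset has no gene in that annotation and was named through the study's supplementary table. In all 10 genes with 11 probesets were found among 18769 probesets, with 2 probesets for Ald1 and 1 for each of the others. Of these, 10 probesets reached a signal of 100 on at least 3 of 20 arrays and were tested, together with 9858 probesets in all, these 10 included. Hex-C was the only one left out.

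Glycolysis turns glucose into pyruvate in the cytosol and yields ATP without oxygen. It consumes NAD+ at the Gapdh step, and when the respiratory chain cannot take up the electrons of NADH, lactate dehydrogenase can return NAD+ by reducing pyruvate to lactate. Glycolytic genes of flies and mammals are known targets of the hypoxia-inducible factor, which is named sima in the fly. CoVa encodes subunit Va of complex IV (cytochrome c oxidase), which passes electrons to oxygen.

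S2 is an embryonic cell line with features of blood cells, grown here in Schneider's medium. The cells were transfected by calcium phosphate with interfering RNA, transcribed in vitro, directed at CoVa or, in controls, at GFP. GFP is no fly gene, so both conditions carried interfering RNA and the transfection. Total RNA was hybridized to Affymetrix Drosophila Genome 2 arrays, 10 of GFP RNAi and 10 of CoVa RNAi cells. Experiment 1 was sampled at 48 and 168 hr, experiments 2 and 3 at 72, 96, 120 and 168 hr, and 1 array of untransfected cells comes from experiment 1 at 48 hr. Both the GFP and the CoVa cells of an experiment were sampled at each time, which gives 10 matched pairs. Values are linear signal intensities. They are compared between arrays for 1 probeset at a time, since probesets differ in how strongly they bind. RNA of whole cultures was measured, so a change in RNA per cell and a change in the mixture of cells cannot be told apart.

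The CoVa signal itself was lower in CoVa RNAi cells in 9 of 10 pairs and not in the 48 hr pair (7336 in GFP and 8364 in CoVa RNAi cells). It stood 72.9%, 91.0% and 45.6% below GFP at 168 hr in experiments 1, 2 and 3. Array medians ran from 67.5 to 94.4. Of the blood cell markers, srp was well expressed (2453 ± 582 in GFP, mean ± SD over 10 arrays), whereas Hml, NimC1 and He had means under 100. Col4a1 fell from 422 ± 131 to 195 ± 70.4 (log2 ratio of the signal plus 32, CoVa over GFP, -1.0, adjusted p = 0.00223 from limma) and was the only call among the 6 of 9 such genes that were tested. Among all tested probesets 11.3% were higher and 6.47% lower. Nplp2 (2498 in GFP and 1506 in CoVa RNAi cells, adjusted p = 0.311 from limma) was lower in 10 of 10 pairs. It passed with the pairs as a block (adjusted p = 8.55e-04). Pxn (1207 and 871, adjusted p = 0.404, and 0.0267 with the block) was higher in 3 of 10 pairs, and its other probeset (55.3 and 59.9) was not tested. Of the other tested markers, vkg (555 and 592) was higher in 7 of 10 pairs, eater (219 and 249) in 5 and srp in 2. The summed signal of the blood cell markers ran from 2930 to 11277 in GFP and from 2555 to 9392 in CoVa RNAi cells. Of the 3 lamellocyte markers, PPO3 and ItgaPS4 were higher in CoVa RNAi cells. PPO3 rose from 195 ± 57.4 to 355 ± 142 (log2 ratio 0.69, adjusted p = 0.0313 from limma). ItgaPS4 rose from 29.1 ± 24.1 to 222 ± 182 (log2 ratio 1.81, adjusted p = 0.00121). The GFP level of ItgaPS4 was near the lowest values, so the size of its ratio depends on the 32 added to each signal. The marker atilla was equally low (27.9 in GFP) and was not tested. The summed signal of the 3 lamellocyte markers ran from 196 to 367 in GFP and from 208 to 1216 in CoVa RNAi cells. The part of either marker list in the changes below was not tested. The 3'/5' signal ratio of the actin control had a median of 1.71 in GFP and 1.81 in CoVa RNAi cells, and that of eIF-4a 2.64 and 2.28.

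The RNA of most of the listed enzymes was more abundant in CoVa RNAi cells, whereas that of Pgk in the same pathway, described further on, was lower. Over all arrays 9 of the 10 tested probesets were higher and 0 lower by limma at the adjusted threshold of 0.05, where 11.3% of all tested probesets were higher. The median log2 ratio of the members was 0.62, against 0.04 for all tested probesets. Each of the 10 was higher in 10 of 10 matched pairs, as 9.65% of all tested probesets were. The largest differences were found in ImpL3 and in Pfk, at the end of the pathway and at its committed step. Among all tested probesets 1116 were higher and 638 lower (63.6% higher), and after quantile normalization 794 and 731 (52.1% higher). Without experiment 2, 6 of the 10 members passed, and without the 168 hr arrays 7.

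**Figure D1:**
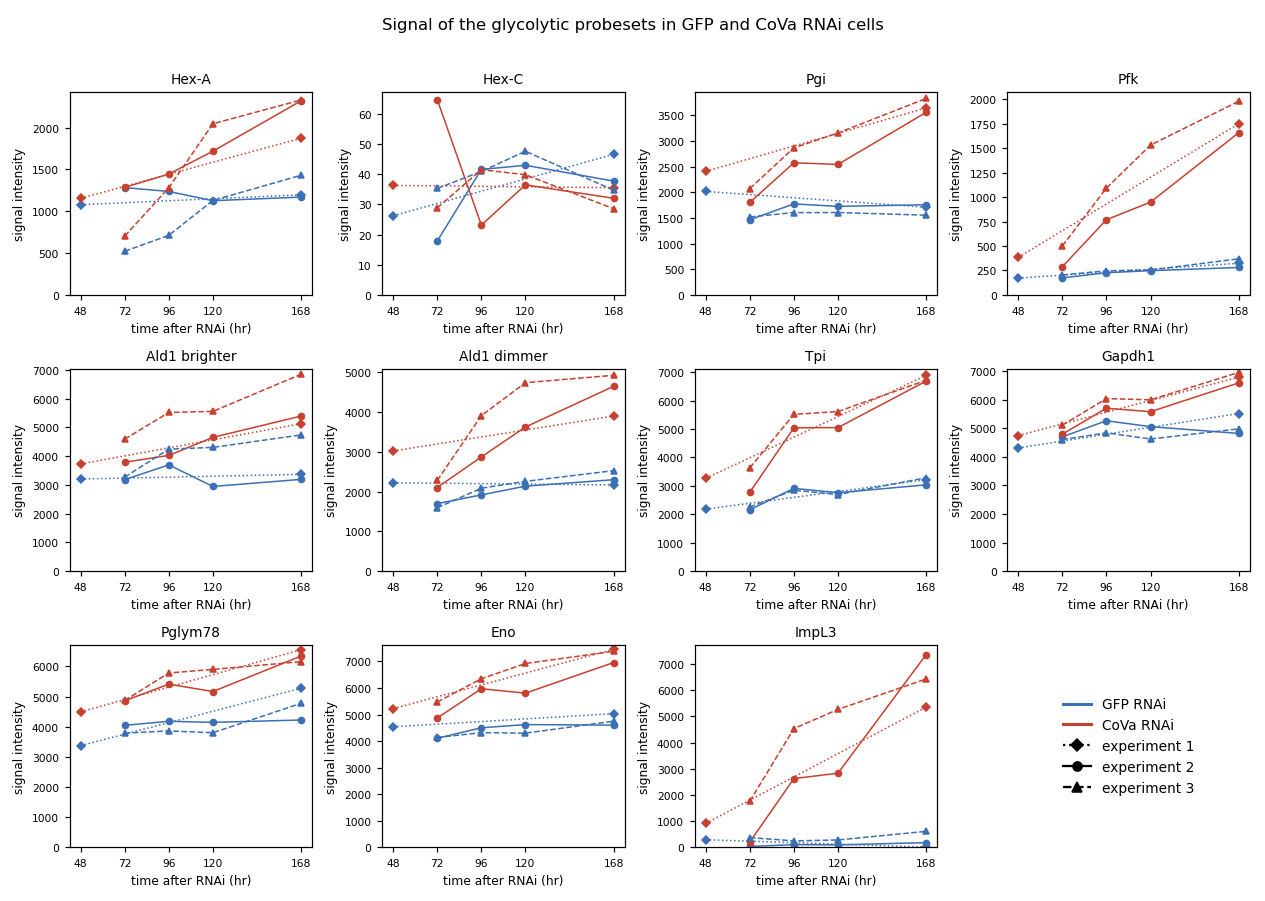
Signal intensity (linear, each axis from 0) of the 11 probesets against hours after RNAi, 1 panel per probeset in the order of the pathway, with GFP RNAi in blue, CoVa RNAi in red and a symbol for each of the 3 experiments. The red points lie above the blue points of the same experiment and time for every probeset except Hex-C, whose values stay between 17.8 and 64.8.

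Entry of glucose into the pathway depends on hexokinase, which phosphorylates glucose and so traps it in the cell. Of the fly hexokinases Hex-A was well expressed. Its signal in GFP RNAi cells had a lowest value of 521, a median of 1149 and a highest value of 1429.7 over 10 arrays, and in CoVa RNAi cells 702, 1581 and 2329.6. The groups overlapped, with 6 of the 10 CoVa arrays above all GFP arrays. The log2 ratio over all arrays was 0.53 (SE 0.20, 95% interval 0.10 to 0.95) and did not pass (adjusted p = 0.0804 from limma); blocking on the matched pairs made it pass (adjusted p = 0.00145, range 0.00145 to 0.459 over 14 alternatives). In experiment 3 the GFP signal itself went from 521 at 72 hr through 711 and 1129 to 1429.7 at 168 hr, while experiment 2 had 1282, 1236, 1126 and 1169. Hex-C, a second hexokinase, never reached 100, with 37.2 ± 9.25 in GFP and 36.7 ± 11.3 in CoVa RNAi cells (mean ± SD over 10 arrays), so that no change could be measured in it.

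The sugar phosphate is then isomerized by Pgi and committed to glycolysis by Pfk, the enzyme at the main point of control. Pgi ran from 1466 (median 1658) to 2018 in GFP and from 1802 (median 2722) to 3830.3 in CoVa RNAi cells, with 9 of 10 CoVa arrays above all GFP arrays. It rose by a log2 ratio of 0.72 (adjusted p = 3.41e-04, SE 0.12 from limma). The GFP signal of Pgi was 1520 at 72 hr and 1554 at 168 hr in experiment 3, while the CoVa signal went from 2073 to 3830.3.

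Pfk was the member with the largest log2 ratio after ImpL3. Its signal in GFP RNAi cells was 171 to 369 with a median of 247, and in CoVa RNAi cells 288 to 1981 with a median of 1021. Only the CoVa array of experiment 2 at 72 hr (288) fell within the range of the GFP arrays. The log2 ratio over all arrays was 1.78 (adjusted p = 3.99e-04, SE 0.30 from limma). In experiment 2 the CoVa over GFP ratio of Pfk climbed from 1.65 at 72 hr through 3.39 and 3.83 to 5.92 at 168 hr. Experiment 3 gave 2.45, 4.43, 6.02 and 5.37. Experiment 1 had 2.24 at 48 hr and 5.41 at 168 hr.

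The C6 sugar is split by aldolase into a pair of triose phosphates, which Tpi interconverts. The probesets of Ald1 differed in size but not in direction. The brighter probeset ran from 2943 (median 3317) to 4736 in GFP and from 3726 (median 4887) to 6844 in CoVa RNAi cells, and 5 of 10 CoVa arrays were above all GFP arrays. The dimmer probeset ran from 1594 (median 2153) to 2528 and from 2103 (median 3764) to 4928, and 8 of 10 were above. Their log2 ratios were 0.44 (adjusted p = 0.0100, SE 0.11 from limma) and 0.73 (adjusted p = 0.00154, SE 0.15). In experiment 3 at 120 hr the probesets were furthest apart, with log2 differences of 0.37 and 1.06. The brighter probeset did not pass without experiment 2 (adjusted p = 0.135) or without the 168 hr arrays (adjusted p = 0.143).

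Tpi ran from 2157 (median 2802) to 3284 in GFP and from 2772 (median 5279) to 6884 in CoVa RNAi cells, with 8 of 10 CoVa arrays above all GFP arrays. It rose by a log2 ratio of 0.85 (adjusted p = 8.49e-04, SE 0.16 from limma). The 3 CoVa arrays at 168 hr lay within a narrow band, at 6884, 6683 and 6712 in experiments 1, 2 and 3, where GFP had 3216, 3034 and 3284. The ratio was thus 2.14, 2.20 and 2.04.

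Gapdh1, Pglym78 and Eno act between the triose phosphates and pyruvate. Gapdh1, which oxidizes the triose phosphate and makes NADH, ran from 4306 (median 4826) to 5510.5 in GFP and from 4739 (median 5844) to 6948 in CoVa RNAi cells, and rose by a log2 ratio of 0.25 (adjusted p = 0.0219, SE 0.07 from limma). The call was lost without experiment 2 (adjusted p = 0.146), without experiment 3 (adjusted p = 0.197), without the 168 hr arrays (adjusted p = 0.244) and after scaling to a common median (adjusted p = 0.194). Pglym78, a phosphoglycerate mutase, ran from 3372 (median 4094) to 5273 in GFP and from 4486 (median 5594.5) to 6551 in CoVa RNAi cells, a log2 ratio of 0.42 (adjusted p = 0.00149, SE 0.08). It did not pass without experiment 2 (adjusted p = 0.0777). Eno, which makes phosphoenolpyruvate, ran from 4104 (median 4520.3) to 5033 and from 4869.5 (median 6159) to 7454, a log2 ratio of 0.46 (adjusted p = 3.61e-04, SE 0.08), and 9 of 10 CoVa arrays were above all GFP arrays.

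ImpL3 had by far the widest range. In GFP RNAi cells its lowest value was 9.60, which is the lowest value of the whole table, its median 214 and its highest value 611, and 7 of the 10 GFP arrays reached 100. In CoVa RNAi cells it ran from 205 (median 3685) to 7367, and all but the array of experiment 2 at 72 hr (205) were above all GFP arrays. The log2 ratio was 3.79 (adjusted p = 2.35e-04, SE 0.59 from limma). The control level of ImpL3 differed between the experiments. In experiment 2 the GFP arrays had 34.6, 104, 93.7 and 180 in order of time, and those of experiment 3 had 373, 247.0, 282 and 611. The CoVa signal was 205, 2626, 2833 and 7367 in experiment 2 and 1762, 4536, 5271 and 6434 in experiment 3. In experiment 1 it went from 914 at 48 hr to 5358 at 168 hr while the GFP signal was 291 and then 9.60.

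At 168 hr, the only time sampled in all 3 experiments, the order of the responses can be compared with their spread. The 3 CoVa arrays lay above the 3 GFP arrays for each of the 10 tested probesets, as they did for 22.7% of all tested probesets. In the fit of 1 mean per condition and time 9 of 10 members were higher and 0 lower at 168 hr, where 9.14% of all tested probesets were higher, and the median log2 difference of the members was 0.85, against 0.06 for all. ImpL3 was first with a log2 difference of 5.16 ± 1.84 (SD, n = 3 experiments), Pfk followed with 2.36 ± 0.06, then Pgi with 1.12 ± 0.14 and Tpi with 1.08 ± 0.05. The value of ImpL3 includes the experiment 1 pair, set against the lowest value of the table, so it moved with the number added to the signal (4.52 with 100 added and 5.44 with 16). Below these came the dimmer Ald1 probeset (0.93 ± 0.09), Hex-A (0.76 ± 0.18), the brighter Ald1 probeset (0.63 ± 0.11), Eno (0.60 ± 0.03), Pglym78 (0.42 ± 0.14) and Gapdh1 (0.41 ± 0.10). ImpL3 stood apart from Pfk, Pfk from Pgi, and Tpi from the dimmer Ald1 probeset, in that their ranges over the 3 experiments did not overlap. All other neighbours in this order overlapped. The ranks of the differences say nothing of the amounts of the enzymes. Hex-C at 168 hr ran from 34.7 to 46.6 in GFP and from 28.6 to 35.5 in CoVa RNAi cells, all near the background.

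**Figure D2:**
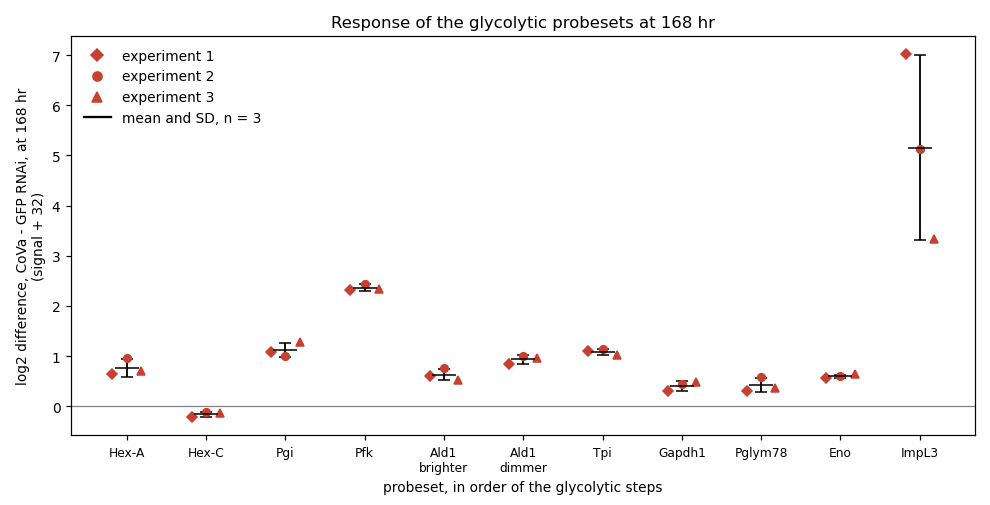
Log2 difference of the signal plus 32 between CoVa and GFP RNAi cells at 168 hr, with a point for each of the 3 experiments and black bars for the mean and SD, by probeset in the order of the pathway. Pfk (2.33 to 2.44) and ImpL3 (3.33 to 7.02) lie above all other probesets, Gapdh1 and Pglym78 are the lowest of those tested, and Hex-C lies near 0.

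On the linear scale the 168 hr differences of ImpL3 were 40.9-fold in experiment 2 and 10.5-fold in experiment 3. In experiment 1 the GFP array stood at the lowest value of the table, so the CoVa array was at least 53.6-fold higher when set against a signal of 100. Adjusted p-values at 168 hr were 2.43e-05 for Pfk, Tpi and Pgi, 0.00418 for ImpL3, 0.00449 for Gapdh1 and 0.0492 for the brighter Ald1 probeset, all from limma. Hex-A did not pass (log2 difference 0.76, adjusted p = 0.119), unlike in the fit blocked on matched pairs (adjusted p = 0.00316). When experiment 2 was left out, 0 members passed at 168 hr in a fit with few residual degrees of freedom, while the log2 differences stayed between 0.34 for Pglym78 and 5.17 for ImpL3. Gapdh1 (adjusted p = 0.0586) and Pglym78 (adjusted p = 0.0652) did not pass without experiment 3, nor did the brighter Ald1 probeset without experiment 1 (adjusted p = 0.163). After scaling to a common median 6 members passed at 168 hr, and Gapdh1 (adjusted p = 0.417), Pglym78 (adjusted p = 0.431) and Eno (adjusted p = 0.0966) did not.

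Pooled over the experiments, the response was larger at later times. At 72 hr 0 of the 10 members passed in either direction, and 0% of all tested probesets were higher. An unadjusted p under 0.05 from limma was found for 6 of the 10 members, and for 243 of the 9858 tested probesets in either direction. At 96 hr 3 passed, namely Pfk (log2 difference 1.82), Tpi (0.87) and Pgi (0.68), where 1.39% of all tested probesets were higher. At 120 hr the dimmer Ald1 probeset (0.91) and Eno (0.51) joined them, which made 5, against a background of 2.32%. Over the 4 times in turn the median log2 difference of the members was 0.37, 0.60, 0.74 and 0.85, and that of all tested probesets was between 0.03 and 0.06. By experiment the members' median was 0.28, 0.47, 0.63 and 0.99 in experiment 2. It was 0.46, 0.82, 0.90 and 0.82 in experiment 3, with no further rise after 120 hr. The counts at 72, 96 and 120 hr rest on experiments 2 and 3 and those at 168 hr on all 3, so they also differ in power. Without experiment 2, and again without experiment 3, 0 members passed at 96 or 120 hr. With a block for the experiment 7 members passed at 96 hr and 8 at 120 hr, and with the matched pairs as a block 7 and 9. The shares of all tested probesets above are those of the fit without blocks, and those with the blocks are not given here. At 120 hr 76.1% of the changed probesets of the whole table were higher, and 86.9% after scaling to a common median.

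Fitted against hours, the log2 differences of the 10 pairs gave a rise with time for 7 of the 10 members, where 11.7% of all tested probesets had such a slope. The steepest slopes were those of ImpL3 (0.71 per 24 hr, adjusted p = 0.0135, SE 0.17 from limma; 0.45 without experiment 1) and Pfk (0.31 per 24 hr, adjusted p = 0.00396, SE 0.06). They were followed by Pgi (0.18, adjusted p = 0.00198), Hex-A (0.13, adjusted p = 0.0329), Tpi (0.12, adjusted p = 0.00989), the dimmer Ald1 probeset (0.11, adjusted p = 0.0219) and Gapdh1 (0.07, adjusted p = 0.0469). Eno (0.07, adjusted p = 0.0501) and the brighter Ald1 probeset (0.08, adjusted p = 0.0518) lay just outside the threshold. For Pglym78 the slope was 0.01 per 24 hr (95% interval -0.04 to 0.07, adjusted p = 0.779). Its log2 difference was 0.41 in the single 48 hr pair, where the CoVa signal was not below that of GFP. Without the 48 hr pair 4 members passed. Without experiment 1, and again without experiment 2, there were 2, namely Pgi and Pfk, and ImpL3 was not among them (adjusted p = 0.137 and 0.108).

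Within the CoVa RNAi arrays alone, 7 of the 10 members were higher at 168 than at 72 hr, with 4.78% of all tested probesets higher (471 higher and 321 lower). After quantile normalization these all-probeset counts were 288 and 489, and after scaling to a common median 158 and 244. Pfk gained most among those that passed, a log2 change of 2.15 (adjusted p = 3.41e-04, SE 0.24 from limma), followed by Tpi (1.08), the dimmer Ald1 probeset (1.02), Pgi (0.92), Eno (0.49), Gapdh1 (0.45) and Pglym78 (0.38). ImpL3 (3.29, 95% interval 0.84 to 5.74, adjusted p = 0.104), Hex-A (1.16, adjusted p = 0.0607) and the brighter Ald1 probeset (0.46, adjusted p = 0.267) did not pass. Without experiment 2 the count was 2, Pfk and Hex-A. Within the GFP arrays 0 of the 10 members passed (5 had an unadjusted p under 0.05 from limma), and 0% of all tested probesets were higher (747 at an unadjusted p under 0.05 in either direction). Their log2 changes were all above 0, from 0.12 for ImpL3 to 0.68 for Pfk, with a median of 0.24 against 0.03 for all tested probesets. Tpi, at 0.52, had the lowest p of the members (unadjusted p = 4.69e-04, adjusted p = 0.345).

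**Figure D3:**
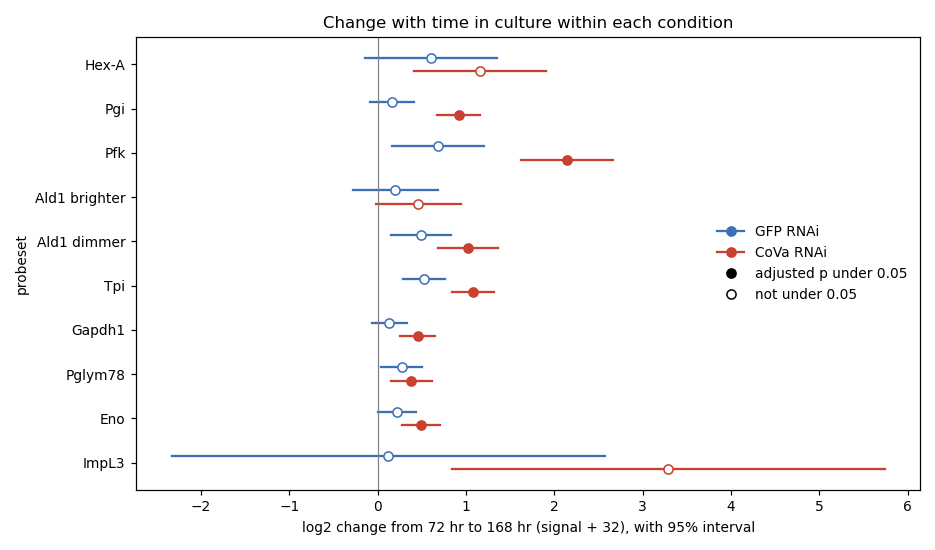
Log2 change of the signal plus 32 from 72 to 168 hr within GFP RNAi (blue) and CoVa RNAi cells (red) for the 10 tested probesets, with 95% intervals from limma and filled points where the adjusted p was under 0.05. Every point lies above 0, the 7 filled points are all red, and the red point lies to the right of the blue one for each probeset.

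The sizes of the CoVa knockdown and of the glycolytic response did not follow the same order in experiments 2 and 3. The CoVa signal was 60.3%, 58.4%, 66.7% and 91.0% below GFP at 72, 96, 120 and 168 hr in experiment 2, but 24.8%, 30.7%, 36.8% and 45.6% in experiment 3. The response of the members was nonetheless larger in experiment 3 for 9 of the 9 probesets other than ImpL3 at 72 hr, 9 of 9 at 96 hr and 8 of 9 at 120 hr. For ImpL3 at 72 hr (1.83 in experiment 2 and 2.15 in experiment 3) the order rests on the 32 added to each signal, since its GFP signal in experiment 2 was 34.6. The median log2 difference of all 10 members, ImpL3 included, was 0.28, 0.47 and 0.63 in experiment 2 and 0.46, 0.82 and 0.90 in experiment 3. For all tested probesets it was -0.01, 0.07 and 0.05 in experiment 2 and 0.06, 0.03 and 0.01 in experiment 3. At 168 hr the order of the members turned, with medians of 0.99 and 0.82 and a larger response in experiment 3 for 3 of 10. At all of 72, 96 and 120 hr the response was larger in experiment 3 for 8 of the 10 members, and for 21.4% of all tested probesets. The exceptions were ImpL3, whose log2 difference at 96 hr was 4.29 in experiment 2 and 4.03 in experiment 3, and the brighter Ald1 probeset, with 0.65 and 0.37 at 120 hr. Each experiment gives 1 pair at each time and its times are not independent, so this difference was not tested.

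**Figure D4:**
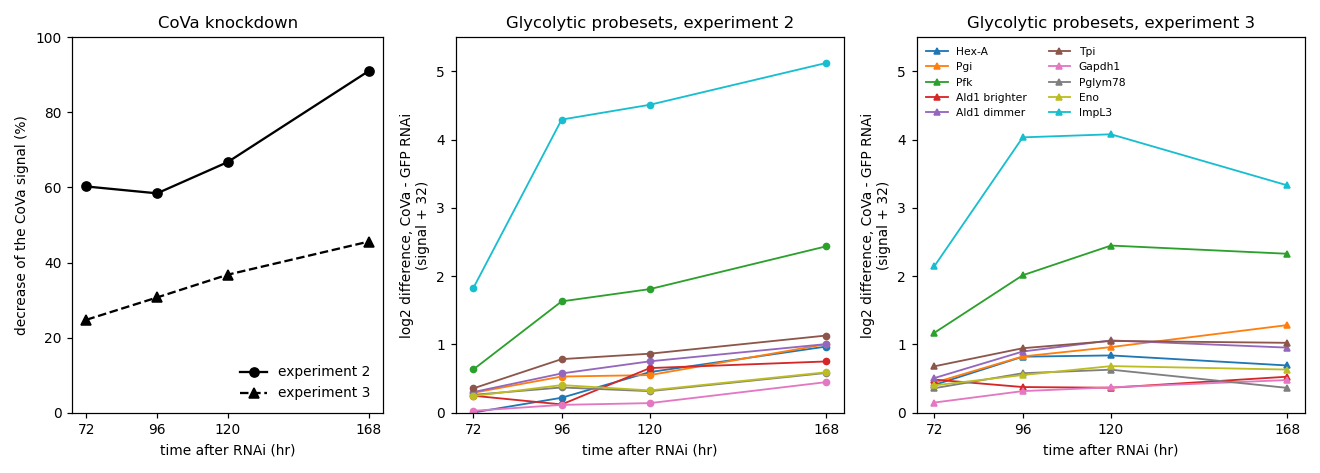
Left, percent decrease of the CoVa signal in CoVa RNAi relative to GFP RNAi cells against hours after RNAi in experiments 2 and 3. Middle and right, log2 difference of the signal plus 32 for the 10 tested glycolytic probesets in experiment 2 and in experiment 3. The knockdown is deeper in experiment 2 at every time, while at 72 hr the 9 probesets other than ImpL3 have the larger difference in experiment 3, and the order of ImpL3 there rests on the value added.

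At 48 hr in experiment 1, where the CoVa signal was not lower than in GFP, untransfected cells were measured too. In this single set, which has no replicate, the CoVa array was above both the GFP and the untransfected array for 9 of the 11 probesets. The exceptions were Hex-C and Gapdh1. How many of all tested probesets had this order was not counted, so the count is not read as a result about the members. For Pfk the signal was 260.2 in untransfected, 171 in GFP and 383 in CoVa RNAi cells. For ImpL3 it was 305, 291 and 914. Tpi had 2530.0, 2179 and 3262, and Pgi 1700.0, 2018 and 2408. The GFP array was thus below the untransfected one for Pfk and Tpi and above it for Pgi.

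The rest of the pathway was poorly covered or moved otherwise. Of 14 further glycolytic enzymes and isoforms 11 had a probeset and 3 were tested (Pgk, CG11249 and Hex-t1). Of these 0 were higher and 1 was lower, where 6.47% of all tested probesets were lower. This was Pgk, which makes the first ATP of glycolysis from the product of Gapdh. The Pgk signal was 2715 to 3441 in GFP (median 2981) and 755 to 1584 in CoVa RNAi cells (median 1065), so that the groups did not overlap (log2 ratio -1.48, adjusted p = 4.04e-08, SE 0.11 from limma). The Pgk ratio was 0.583 in the 48 hr pair. It was 0.278, 0.334, 0.339 and 0.470 at 72, 96, 120 and 168 hr in experiment 2 and 0.255, 0.329, 0.333 and 0.359 in experiment 3, where the flanking Gapdh1 and Pglym78 had ratios above 1 throughout. Gapdh2 and PyK have no probeset named here and were not analysed.

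Of 5 genes that handle NADH or lactate outside the pathway, Gpdh1 and Mct1, with 5 probesets, were tested. Over all arrays 0 of the 5 probesets were higher and 4 lower, 3 of these being of Gpdh1, where 6.47% of all tested probesets were lower. Gpdh1, the cytosolic glycerol-3-phosphate dehydrogenase, also oxidizes NADH and so draws on the same triose phosphates. Its probesets had log2 ratios of -0.70 (adjusted p = 0.00131 from limma), -0.86 (adjusted p = 6.42e-04), -0.34 (adjusted p = 0.0448) and -0.45 (adjusted p = 0.0584), from the brightest to the dimmest. Mct1, a monocarboxylate transporter, fell from 410.4 ± 113 to 196 ± 84.7 (mean ± SD over 10 arrays, log2 ratio -1.0, adjusted p = 0.00250, SE 0.21).

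Among 7 tested regulators of glycolysis 1 of 9 probesets was higher and 0 were lower, a share near the 11.3% of all tested probesets. Hph, the prolyl hydroxylase that marks the hypoxia-inducible factor for destruction, went from 128 ± 30.0 in GFP to 199 ± 40.4 in CoVa RNAi cells at the dimmer of its probesets (mean ± SD over 10 arrays, log2 ratio 0.53, adjusted p = 0.00256, SE 0.11 from limma), and it was higher in 10 of 10 pairs. The brighter Hph probeset had a log2 ratio of 0.35 (adjusted p = 0.226), which passed once pairs were blocked (adjusted p = 0.00558). The factor itself, sima, which was added after its values were seen, had a log2 ratio of 0.49 (adjusted p = 0.281, and 0.00306 with the pairs as a block) and was higher in 9 of 10 pairs. With that block the brighter probeset of Pdk, the kinase that inhibits pyruvate dehydrogenase, was lower (log2 ratio -0.18, adjusted p = 0.0268). The dimmer Pdk probeset did not pass with it (log2 ratio -0.14, adjusted p = 0.123 from limma). Pdp, the opposing phosphatase, was higher with the block (log2 ratio 0.13, adjusted p = 0.0410). Pdk and Pdp were named after their values were seen. The share of all tested probesets that passed with this block is not given here, so these calls are not read as a result about the regulators.

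Across the 20 arrays the members moved together. Pearson's r of the log2 signal between member probesets lay between 0.53 and 0.99 with a median of 0.87 over 45 pairs of probesets. These arrays share the 2 conditions and the time courses, so r describes both. The 5 probesets most like Pfk outside the pathway were Naprt (r = 0.986), which starts NAD+ synthesis from nicotinic acid, Glys (0.982) and AGBE (0.978), which build and branch glycogen, CG30022 (0.973) and Tpc1 (0.968), a mitochondrial carrier of thiamine pyrophosphate. The signal of Naprt went from 657 ± 67.1 to 2097 ± 903, that of Glys from 2916 ± 334 to 4505 ± 1000.0 and that of AGBE from 1009 ± 133 to 1870 ± 492 (mean ± SD over 10 arrays). Those most like ImpL3 were Tret1-1 (r = 0.962), a transporter of trehalose, JhI-21 (0.960), Hsp60A (0.959), a mitochondrial chaperonin, Hmgs (0.956), an enzyme of the mevalonate pathway, and Dgp-1 (0.954). Tret1-1 went from 114 ± 49.4 to 813 ± 554 and Hsp60A from 4909 ± 258 to 6265 ± 477.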

How the data were processed

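Total RNA of 21 samples was measured on 1-colour Affymetrix Drosophila Genome 2 arrays, 1 per sample. The deposited signal intensity values are linear. Per the study, the authors used the GeneChip Operating System for cel files and presence calls, and dChip for normalization against the median-intensity array. The labels also name MAS5, and versions are not given in the sources used here. The 18952 probesets include 183 control probesets, which were used only for checks. Of the others 13646 are annotated to 1 gene, 402 to several and 4721 to none. Genes bear the array's or the RefSeq names.

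Signals were taken as log2(value + 32), and probesets at 100 or more on at least 3 of 20 arrays were kept. Conditions were contrasted by eBayes in limma 3.58.1 (statmod 1.5.0, R 4.3.3), with Benjamini-Hochberg adjustment over all kept probesets and a threshold of 0.05, first over all arrays and then with 1 mean per condition and time. Intervals are at 95%. A line through the pair differences gave the slope per 24 hr. The study calls its 3 time courses independent, but times of 1 experiment are not. The p-values measure the spread between arrays, or between pair differences for the slope and the paired block, and not that between experiments. The number of arrays limits the precision. Pairs were taken from the shared experiment and time, and the deviations from the group means correlated within pairs at 0.58 to 0.96.

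Every member probeset is named, as are Pgk, at most 4 passing genes per list, the 5 probesets most like Pfk and ImpL3, and CoVa. Marker lists for plasmatocytes or S2 cells, crystal cells, lamellocytes, muscle, neurons and fat body were checked. Of these, 1 probeset (Col4a1, log2 ratio -1.0) passed in the first, 2 in lamellocytes and 0 in the others. Among all tested probesets 11.3% were higher and 6.47% lower. Members and lists were chosen with earlier results of these data known. The fits were also run on simulated data with independent noise for each array. That run could not check the effect of the correlation within experiments and pairs. Alternatives changed the scaling, the value added, the filter, eBayes settings, blocks, times and experiments, and included the methods' t-test. Probesets whose names end in s_at can match several transcripts. A planned look at promoter and protein sequences was not run.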

Additional observations from a re-analysis of the deposited data

Results flagged for a closer look

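For 7 probesets the CoVa response differed between time points, by the test of the slope given above. The slopes were 0.71 per 24 hr on the log2 scale for ImpL3, 0.305 for Pfk, 0.177 for Pgi, 0.134 for Hex-A, 0.117 for Tpi, 0.112 for the dimmer Ald1 probeset and 0.0664 for Gapdh1, with n = 10 pairs.

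Among the CoVa RNAi arrays 1 Hex-C value stood far from the others, 64.8 in experiment 2 at 72 hr, where the gap to the nearest array was 0.559 of the whole range. The GFP array of the same experiment and time was the lowest of its group (17.8). Both are below 100. This was 1 of 22 groups of arrays looked at, and chance sets about 1 group in 20 apart in this way.

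The control probesets named GAPDH, which entered no comparison above, did not move as 1 group. The 3 named AFFX-Dros-GAPDH were higher in CoVa RNAi cells in 10 of 10 pairs, with ratios of the means from 1.31 to 1.43. The 4 named AFFX-r2-Dros-GAPDH had ratios from 0.61 to 0.77 and were higher in 0 to 2 of 10 pairs. Over the 20 arrays the first 3 correlated with Gapdh1 at 0.90 to 0.95 and with the Gpdh1 probesets at -0.89 to -0.42. The other 4 correlated with the Gpdh1 probesets at 0.70 to 1.00 and with Gapdh1 at -0.81 to -0.51. The closest match was AFFX-r2-Dros-GAPDH-3_a_at with the brightest Gpdh1 probeset (r = 0.998), whose signals were 1811 ± 216 and 1804 ± 237 in GFP and 1142 ± 348 and 1129.8 ± 351 in CoVa RNAi cells (mean ± SD over 10 arrays). The probe sequences of these controls were not analysed here.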

How the results depend on the processing

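The over-all-arrays count of 9 members ran from 6 to 9 when 1 experiment was left out and from 7 to 10 under the other alternatives, and a block for the experiment left it at 9. At 96 hr (3 members) it was 1 after scaling to a common median, 6 with trended and robust eBayes, 6 with the filter at 200 on 10 arrays, 7 with the replicate block and 7 with the paired block, and 0 to 2 with an experiment left out. At 120 hr (5 members) it was 3 after scaling to a common median, 8 and 9 with the replicate and paired blocks, and 0 to 4 with an experiment left out. At 168 hr (9 members) it was 0 to 8 with an experiment left out, the 0 without experiment 2. The count of slopes (7 members) was 4 after scaling to a common median, 4 without the filter, 4 without the 48 hr arrays and 2 to 6 with an experiment left out. From 72 to 168 hr the count in CoVa RNAi cells (7 members) was 4 after scaling to a common median and 2 to 6 with an experiment left out, and in GFP cells 0 to 1. The values that changed sign had not passed in the report. They were the slope of Pglym78 after scaling to a common median (-0.0109) and with an experiment left out (-0.0135 to 0.0324), and, from 72 to 168 hr in GFP cells, Hex-A (-0.114 to 1.28) and ImpL3 (-1.31 to 1.17) with an experiment left out, and ImpL3 (-0.043) and Gapdh1 (-0.0115) after quantile normalization. The cause was not tested. Without replicate 2 or 3 the fits by time have few residual degrees of freedom. The shares of all tested probesets that passed under the blocks, or with an experiment left out, are not given here. Scaling moved the median of all probesets by over 0.1 from 72 to 168 hr in CoVa RNAi cells (from 0.10 to -0.05 under quantile normalization and -0.04 under a common median), in GFP cells (0.03 to -0.08, quantile) and at 168 hr (0.06 to -0.05, common median). Signals near 100, as in Hex-C and in ImpL3 of GFP cells, are limited by the background.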
